A study of Mus musculus with 4 samples.

Results

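Near on/off loci are genes whose RNA level in every library of one group was many times that in every library of the other, down to 0 counts in some. The 10 described here were chosen by their counts in these 4 libraries, which differ widely and alike in both replicates between the groups, and were taken by name from the deposited table of 54152 genes. They are 4 processed pseudogenes (Gm1821, Gm13736, Gm6969 and Gm5436), the zinc finger locus Gm15446, the protein-coding genes Prrt3, Gramd2, Stac2 and Atp1a4, and the antisense transcript AC165951.1. Their differences are given as descriptions, with no p-value for any of them. The mice are labelled C57 and were at day 4 of pregnancy, and RNA came from the whole uterus, with 2 libraries of genotype P38α dd and 2 of genotype P38α ff. The series title names WT and P38α KO, and dd is read here as the knockout and ff as its control. The labels used here do not name the Cre driver, the deleted exons, the C57 substrain or the number of animals behind a library, so p-values cover only the spread among libraries, which may be technical.

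The libraries held 24619850 and 30868922 counts (dd replicates 1 and 2) and 32451670 and 30202955 counts (ff). Mapk14, which encodes p38α, was not lower in dd: it had 2481 and 3429 counts in dd and 3074 and 2710 in ff, a log2 difference of 0.28 (SE 0.09, edgeR adjusted p = 0.12). A count summed over a gene is blind to a deletion of single exons, so every direction here rests on the labels dd and ff. In edgeR's quasi-likelihood test 1554 of 18530 genes differed at an adjusted p under 0.05 (8.39%), 838 higher in dd (4.52%) and 716 lower (3.86%), and scaling by library size alone gave 751 higher and 1020 lower. The number of calls was 90 without ff replicate 1, and 607 and 350 without the first and the second dd replicate. Uterine markers (Pgr, Esr1, Hoxa10, Hoxa11, Msx1, Wnt7a) summed to 1318 and 1453 CPM (counts scaled to library size) in dd and 1163 and 1266 in ff. Of these 6, 1 was higher and 2 lower in edgeR's test (unadjusted p under 0.05 for 4 and 2, DESeq2 4 and 2). Epithelial markers summed to 1974 and 2377 CPM in dd and 716 and 836 in ff, and 4 of 5 were higher in dd. Endothelial markers summed to 367 and 383 CPM in dd and 836 and 737 in ff, and 4 of 4 were lower, while red cell markers summed to 235 and 305 CPM in dd and 62.9 and 60.5 in ff, with 4 of 4 higher. The part of these shifts in the values below was not tested, and in whole tissue a change in the number of cells of a type cannot be told apart from a change in RNA per cell.

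A processed pseudogene is a copy of a spliced messenger RNA that was reverse-transcribed and inserted elsewhere in the genome, so it carries its parent's exons without the introns. Most such copies lack a promoter of their own, and the sets of copies that a genome holds differ between mouse strains. A read from a stretch that parent and copy share letter for letter fits both places equally well, save that across an exon junction it aligns with a gap at the parent. A read with a few differing letters is placed at whichever locus it matches best. How the authors treated reads with more than 1 best place, and whether strand was used, was not stated in the labels or headers.

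The 4 pseudogenes and Gm15446 each have a near-identical coding gene, and the stretches below, read from the GENCODE M21 transcripts (GRCm38, the build called mm10), show how far reads could separate the members of a pair. Capitals mark bases that differ between the sequences of a pair, including bases that one of them lacks. The pseudogene of Srp9, a subunit of the signal recognition particle, is annotated on chromosome 2 over 253 bases, and all of them occur without a difference in the Srp9 transcript, across 2 of its exon junctions.
Gm13736: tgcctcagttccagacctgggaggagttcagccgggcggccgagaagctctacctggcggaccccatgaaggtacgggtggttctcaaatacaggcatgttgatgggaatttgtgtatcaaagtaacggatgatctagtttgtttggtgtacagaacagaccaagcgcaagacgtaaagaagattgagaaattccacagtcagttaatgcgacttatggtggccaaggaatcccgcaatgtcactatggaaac
Srp9: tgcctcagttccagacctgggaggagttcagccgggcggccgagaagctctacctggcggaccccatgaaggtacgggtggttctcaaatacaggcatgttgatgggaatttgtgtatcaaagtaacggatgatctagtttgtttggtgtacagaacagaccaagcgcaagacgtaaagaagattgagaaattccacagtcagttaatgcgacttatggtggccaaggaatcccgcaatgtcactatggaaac

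Gm6969, on chromosome 12, aligned over its 342 bases to the transcript of Cox7a2l, which helps assemble respiratory chain supercomplexes, with 97.7% identity. The pair differed by 2 substitutions and by 6 bases that the Cox7a2l transcript lacks. As background, mouse strains are known to carry a long or a short allele of Cox7a2l that differ by a short in-frame deletion, and C57BL/6, whose sequence is the reference genome, carries the short one. The stretch with both kinds of difference is shown.
Gm6969: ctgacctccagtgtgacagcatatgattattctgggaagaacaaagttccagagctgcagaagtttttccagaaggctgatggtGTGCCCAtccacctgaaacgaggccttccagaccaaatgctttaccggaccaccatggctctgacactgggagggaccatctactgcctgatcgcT
Cox7a2l: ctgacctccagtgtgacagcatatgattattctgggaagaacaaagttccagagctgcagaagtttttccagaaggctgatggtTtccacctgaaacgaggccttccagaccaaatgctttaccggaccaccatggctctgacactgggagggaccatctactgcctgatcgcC

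Gm5436 matched Atp5o, a stalk subunit of mitochondrial ATP synthase, at 97.0% of 643 bases with 19 substitutions, and Gm1821 matched the polyubiquitin gene Ubb at 98.5% of 685 bases with 10. The 180 aligned columns with the most differences are given for each.
Gm5436: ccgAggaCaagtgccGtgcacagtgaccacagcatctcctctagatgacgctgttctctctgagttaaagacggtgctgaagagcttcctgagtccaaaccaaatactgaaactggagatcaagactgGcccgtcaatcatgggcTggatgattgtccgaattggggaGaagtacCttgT
Atp5o: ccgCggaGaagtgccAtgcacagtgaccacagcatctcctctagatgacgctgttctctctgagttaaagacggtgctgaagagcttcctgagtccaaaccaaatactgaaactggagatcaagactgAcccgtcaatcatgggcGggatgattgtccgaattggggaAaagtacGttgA
Gm1821: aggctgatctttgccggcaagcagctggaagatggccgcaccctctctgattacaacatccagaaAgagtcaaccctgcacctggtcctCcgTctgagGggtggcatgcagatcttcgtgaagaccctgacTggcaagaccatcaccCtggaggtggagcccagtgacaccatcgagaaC
Ubb: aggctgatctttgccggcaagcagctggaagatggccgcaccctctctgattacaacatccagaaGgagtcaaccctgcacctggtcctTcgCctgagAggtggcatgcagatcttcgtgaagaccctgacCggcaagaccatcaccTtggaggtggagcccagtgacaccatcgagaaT

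Gm15446, annotated as protein-coding in GENCODE and as a long non-coding RNA in RefSeq, matched Zfp932, a zinc finger gene 52585 bases away on chromosome 5, at 97.4% of 1765 bases. The stretch with the most differences holds 25 differing letters, scattered between identical ones, and ends in a run without any.
Gm15446: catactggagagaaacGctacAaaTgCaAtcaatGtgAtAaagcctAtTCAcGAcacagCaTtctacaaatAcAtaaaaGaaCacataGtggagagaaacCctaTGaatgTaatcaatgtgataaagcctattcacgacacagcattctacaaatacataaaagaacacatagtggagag
Zfp932: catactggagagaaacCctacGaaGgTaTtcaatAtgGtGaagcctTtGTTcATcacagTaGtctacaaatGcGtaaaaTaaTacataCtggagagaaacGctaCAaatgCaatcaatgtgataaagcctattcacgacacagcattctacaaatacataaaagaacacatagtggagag

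Windows of 100 bases that occur without a difference in a transcript of another gene made up 100% of the Gm13736 transcript, 76.8% of Gm1821, 46.9% of Gm6969, 22.1% of Gm15446 and 5.15% of Gm5436. The share was 3.88% for AC165951.1, 0.148% for Atp1a4, and 0% for Prrt3, Gramd2 and Stac2. Sharing at windows of 50 bases was 100% for Gm13736, 89.2% for Gm1821, 69.3% for Gm6969, 48.8% for Gm15446 and 25.4% for Gm5436. Among the 10 loci, Gm13736 thus had no transcript window of its own at either length, and Prrt3, Gramd2 and Stac2 shared none. The lengths that the deposited FPKM values imply matched the GENCODE M21 exon lengths within 1% for 99.9% of 12734 genes with at least 500 counts, so the counts were made over the gene models used here.

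All 10 loci passed the filter on low counts, and all 10 passed edgeR's test against 8.39% of all genes. That count repeats the rule that chose them and adds nothing to it. A total of 8 were high in dd and 2, Gm15446 and Stac2, high in ff, on 9 chromosomes. The gap, the lowest library of the high group over the highest of the low group in CPM with the low library taken at no less than 3 counts, ran from 8.30-fold in Stac2 to 221.9-fold in Gm6969. A threshold of 8-fold on this gap was used in the scan of all genes further on, so Stac2 lay just inside it.

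**Figure D1:**
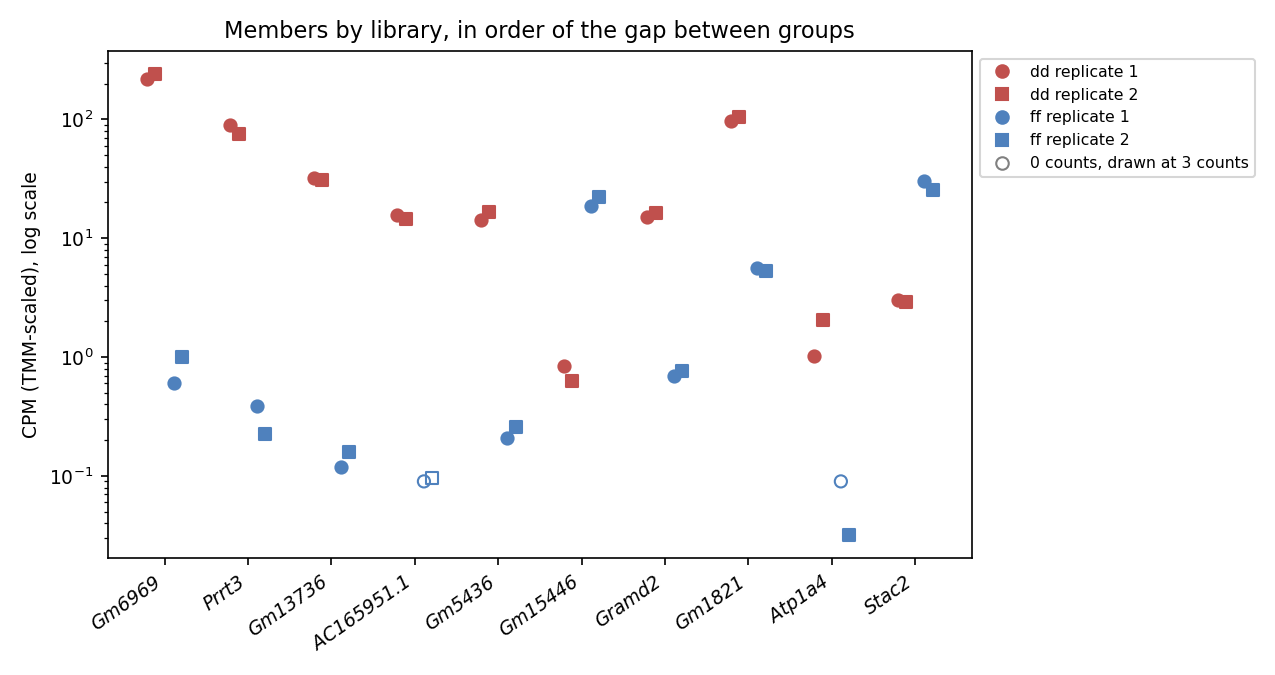
Level of each of the 10 loci in each library, in CPM after TMM scaling on a log axis, with dd libraries in red left of ff libraries in blue and open symbols for 0 counts drawn at 3 counts. The groups are apart at every locus, by the least at Stac2 (8.30-fold) and the most at Gm6969 (221.9-fold).

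Gm6969 (chromosome 12, 24638669 to 24639010, minus strand, mm10) had the highest level of the 10 per length. It had 5218 and 7329 counts in dd, against 20 and 31 in ff. In FPKM, which divides by length, it averaged 676 ± 48.5 in dd and 2.33 ± 0.810 in ff (SD, n = 2 each). The ratio of dd over ff was 294-fold, with a 95% counting interval of 223.5 to 395. Ratios given with such an interval, here and below, compare the summed counts of each group's 2 libraries, scaled to their summed TMM-scaled library sizes. They can differ from the ratio of the mean CPM. Intervals of this kind cover counting error only.

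Its coding copy Cox7a2l had 4676 and 6187 counts in dd and 7724 and 9056 in ff, or 201 ± 4.47 CPM in dd and 261 ± 41.5 in ff (log2 difference -0.38, edgeR adjusted p = 0.153). The pseudogene took 52.7% and 54.2% of the pair's counts in dd, against 0.258% and 0.341% in ff. Such shares, here and for the pairs below, are of counts and do not allow for length. In FPKM, Gm6969 had 642 and 710 in dd, beside 133 and 139 for Cox7a2l. The sum of the pair was 432 ± 19.4 CPM in dd and 262 ± 41.8 in ff, 1.65 times higher in dd. In dd, the copy annotated as a pseudogene thus held more counts than the gene it copies. Counts per gene do not show whether the reads at Gm6969 carry its 6 additional bases, and which locus or allele they came from was not tested.

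Gm13736 (chromosome 2, 87526145 to 87526397, plus strand) had 753 and 928 counts in dd, against 4 and 5 in ff. It averaged 31.2 ± 0.873 CPM in dd and 0.140 ± 0.0285 in ff, a ratio of 223-fold (117.3 to 489). Srp9, identical to it over the whole annotated stretch, moved the other way. It had 692 and 814 counts in dd and 2228 and 2005 in ff, or 28.1 ± 1.71 CPM in dd and 65.6 ± 1.81 in ff. Srp9 fell by 1.23 on the log2 scale (SE 0.09, edgeR adjusted p = 0.016), and the call was lost without ff replicate 1 (adjusted p = 0.0532).

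The dd mean minus the ff mean was -37.5 CPM at Srp9 and 31.1 CPM at Gm13736, and the sum of the pair was 59.3 ± 2.58 CPM in dd and 65.7 ± 1.78 in ff. The pseudogene held 52.1% and 53.3% of the pair's counts in dd, against 0.179% and 0.249% in ff. As Gm13736 holds no base that Srp9 lacks, the bases of the annotated stretch alone give a read within it no ground for a choice between the loci. A read across either of the 2 exon junctions is a case apart, as it aligns with a gap at Srp9 and without one at Gm13736. Bases in the samples that differ from the reference could also give a ground for a choice. None of this was tested, nor was the source of the reads.

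Gm5436 (chromosome 12, 84258331 to 84258973, minus strand) had 334 and 508 counts in dd, against 7 and 8 in ff. It averaged 15.4 ± 1.86 CPM in dd and 0.233 ± 0.0329 in ff, 67.1-fold higher in dd (40.4 to 120.4). Atp5o had 3371 and 4196 counts in dd and 4031 and 3656 in ff (log2 difference 0.24, edgeR adjusted p = 0.141). Gm5436 took 9.01% and 10.8% of the pair's counts in dd, against 0.173% and 0.218% in ff, and the pair summed to 155.9 ± 1.08 CPM in dd and 119.4 ± 2.60 in ff.

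Gm1821 (chromosome 14, 46084028 to 46085000, plus strand), named Ubb-ps in RefSeq, was the one of the 4 pseudogenes with more than 100 counts in each ff library. It had 2282 and 3166 counts in dd, against 187 and 165 in ff, or 100.5 ± 5.60 CPM in dd and 5.45 ± 0.226 in ff, an 18.5-fold ratio (16.6 to 20.7). Ubb, the coding copy, had 16275 and 23431 counts in dd and 27649 and 25139 in ff, or 730 ± 59.8 CPM in dd and 818 ± 16.6 in ff (log2 difference -0.16, edgeR adjusted p = 0.415). The dd mean minus the ff mean was -87.6 CPM at Ubb, and the pair summed to 831 ± 65.4 CPM in dd and 824 ± 16.8 in ff. Gm1821 held 12.3% and 11.9% of the pair in dd, against 0.672% and 0.652% in ff.

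**Figure D2:**
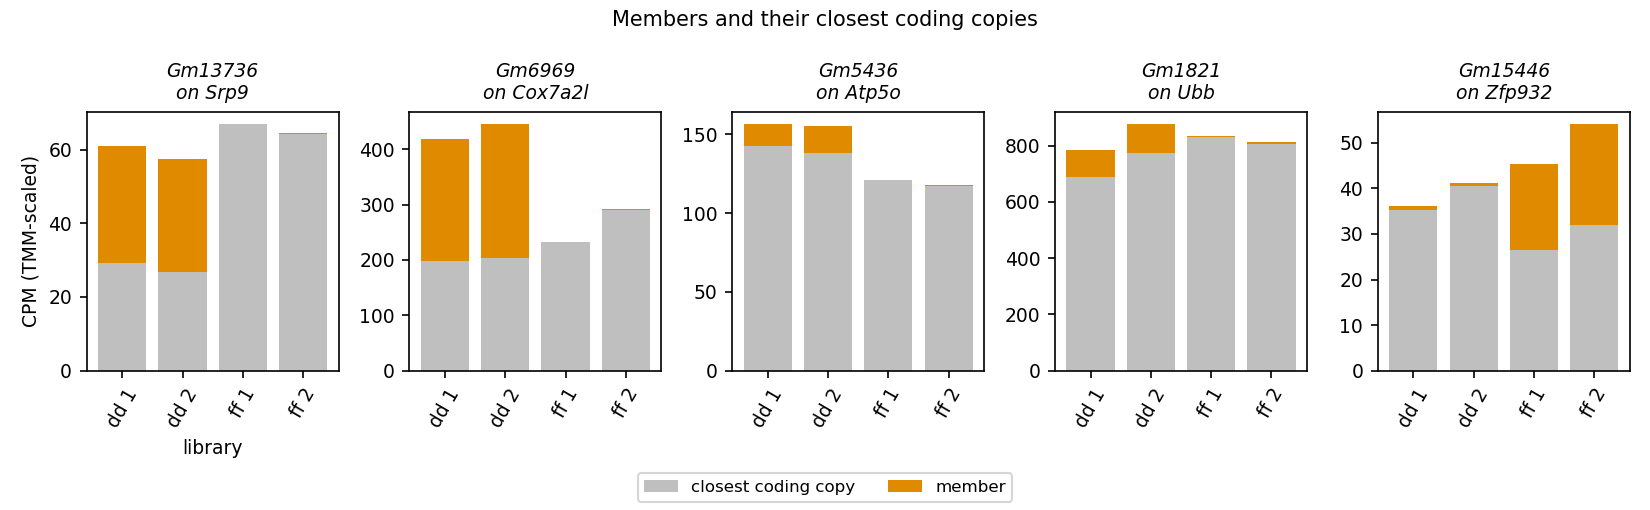
Stacked CPM of 5 loci (orange) on their closest coding copies (grey) in each library, dd left of ff, each panel with its own axis from 0. Gm13736 and Gm6969 make up between 52.1% and 54.2% of their pairs' bars in the dd libraries, and Gm15446 41.4% and 41.1% of its pair in the ff libraries.

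Gm15446 (chromosome 5, 109923400 to 109943936, plus strand) ran the other way. It had 20 and 19 counts in dd, against 625 and 695 in ff, and averaged 0.736 ± 0.155 CPM in dd and 20.5 ± 2.50 in ff. The dd level was 0.0353 of the ff level (0.0250 to 0.0485), and both dd libraries lay far under both ff libraries. Zfp932 had 833 and 1227 counts in dd and 884 and 994 in ff (log2 difference 0.37, edgeR adjusted p = 0.16). Gm15446 took 2.34% and 1.53% of the pair's counts in dd, against 41.4% and 41.1% in ff. The pair summed to 38.6 ± 3.55 CPM in dd and 49.7 ± 6.28 in ff.

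A wider search found genes with a transcript that matched at least 50% of any 1 transcript of a member, short ones included, at 80% identity or more. Of these, 18 could be tested. Of them 0 were higher and 2 lower in edgeR's test (11.1% called, beside 8.39% of all genes). DESeq2 called 0 and 2, and an unadjusted p under 0.05 was found for 4 and 3. The lower genes were Srp9 and Gm14295, a zinc finger relative of Gm15446 with 109 and 138 counts in dd and 275 and 294 in ff. Gm14295 matched 183 bases of a Gm15446 transcript of 192 bases, at 82.5% identity. Gm14295 was lower by a log2 difference of -0.95 (edgeR adjusted p = 0.0491), which was lost without any 1 library (adjusted p between 0.124 and 0.132). Prrt3, Gramd2, Stac2, AC165951.1 and Atp1a4 had no copy under this search.

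Prrt3 (chromosome 6, 113493639 to 113501931, minus strand) encodes a proline-rich transmembrane protein of the family that includes Prrt2, a protein of nerve terminals. It had 2123 and 2302 counts in dd, against 13 and 7 in ff. The means were 82.8 ± 9.79 CPM in dd and 0.307 ± 0.117 in ff, and the ratio of summed counts was 264-fold (171 to 433). Per length it reached 18.0 ± 2.0 FPKM in dd and 0.0670 ± 0.0257 in ff, so the dd libraries held a moderately abundant transcript that ff libraries nearly lacked. Of its 3 relatives Prrt1, Prrt2 and Prrt4, 0 passed edgeR's test (unadjusted p under 0.05 for 1 higher and 2 lower, DESeq2 0 higher and 1 lower). Prrt1 had 213 and 251 counts in dd and 446 and 450 in ff (adjusted p = 0.0623), and Prrt2 17 and 30 in dd and 60 and 59 in ff (adjusted p = 0.0899). Prrt4 had 41 and 45 counts in dd and 28 and 23 in ff (adjusted p = 0.0939).

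Gramd2 (chromosome 9, 59680144 to 59718874, plus strand) encodes a protein with a GRAM domain that sits where the endoplasmic reticulum meets the plasma membrane. It had 360 and 499 counts in dd, against 23 and 24 in ff, or 15.8 ± 0.873 CPM in dd and 0.730 ± 0.0562 in ff, a 21.8-fold ratio (16.3 to 30.0). Among 5 other genes of the GRAM family, 2 rose and 0 fell in edgeR's test, beside 4.52% and 3.86% of all genes. An unadjusted p under 0.05 was found for 2 higher and 1 lower, and DESeq2 called 2 and 1. Gramd4 had 2074 and 2895 counts in dd and 1008 and 1185 in ff (log2 difference 1.42, SE 0.14, edgeR adjusted p = 0.0194). That call was lost by a small margin without ff replicate 1 (adjusted p = 0.0504). Gramd3 averaged 214 ± 5.76 CPM in dd and 116 ± 17.3 in ff (log2 difference 0.88, edgeR adjusted p = 0.0303), and its call held without ff replicate 2 (0.0286) but not without any other library (0.0748 to 0.083). Gramd1a, a cholesterol transfer protein, differed by -0.48 on the log2 scale (edgeR adjusted p = 0.0764).

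Stac2 (chromosome 11, 98036623 to 98053462, minus strand) encodes an adaptor that binds voltage-gated L-type calcium channels and slows their inactivation. It had 72 and 89 counts in dd, against 1002 and 788 in ff. The means were 2.99 ± 0.0772 CPM in dd and 27.7 ± 3.39 in ff, and the dd level was 0.107 of the ff level (0.0909 to 0.126). Neither relative passed the test: Stac had 14 and 26 counts in dd and 50 and 32 in ff, and Stac3, the skeletal muscle form, 70 and 89 in dd and 103 and 118 in ff (edgeR adjusted p = 0.231 and 0.578, unadjusted p under 0.05 for 0, DESeq2 0).

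Of 9 tested subunit genes of L-type channels, 0 rose and 1 fell in edgeR's test (unadjusted p under 0.05 for 2 higher and 1 lower, DESeq2 1 and 1). Cacna2d1, the auxiliary subunit that carries channels to the membrane, averaged 55.2 ± 1.45 CPM in dd and 82.3 ± 7.45 in ff (log2 difference -0.58, edgeR adjusted p = 0.039). It kept the call without ff replicate 2 (0.0452) and lost it without any other library (0.113 to 0.134). Cacna2d3, a related auxiliary subunit, had 99 and 65 counts in dd and 28 and 28 in ff (log2 difference 1.85), with an adjusted p of 0.0639 in edgeR and 0.00977 in DESeq2. Cacna1c, the pore subunit of smooth muscle, had 3418 and 2930 counts in dd and 4441 and 3965 in ff (log2 difference -0.11, edgeR adjusted p = 0.749). Smooth muscle markers (Myh11, Acta2, Des, Actg2, Cnn1) summed to 10524 and 5947 CPM in dd and 7657 and 6498 in ff. None of the 5 passed edgeR's test, none had an unadjusted p under 0.05 and DESeq2 called 0.

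Atp1a4 (chromosome 1, 172223513 to 172258414, minus strand) encodes the catalytic subunit of the sodium pump found in sperm. It had the lowest FPKM in its high group of the 10, with 24 and 62 counts in dd, against 0 and 1 in ff, or 1.53 ± 0.728 CPM in dd and 0.0160 ± 0.0227 in ff. The ratio of 102.8-fold has a counting interval of 18.0 to 4106. The log2 ratio of mean CPM, a different measure, was 6.58, and 5.58 without ff replicate 1 and 5.99 without dd replicate 2. Without ff replicate 2 it was 4.07 (ff then taken at the floor of 3 counts). The size of the difference thus rests on the ff libraries with 0 and 1 counts. Markers of sperm and testis (Prm1, Prm2, Tnp1, Tnp2, Odf1, Akap4) had at most 4 counts in any library, and Tnp1 had 0 in all 4.

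AC165951.1 (chromosome 17, 30920338 to 30963220, minus strand) is an antisense transcript with 370 and 440 counts in dd, against 0 and 0 in ff. It averaged 15.1 ± 0.802 CPM in dd, and its lower dd library was 150.8-fold above the ff libraries when each of these is taken at the floor of 3 counts. The locus lies 2.17 Mb from Mapk14 on the same chromosome. Within 5 Mb either side of Mapk14, 20 of 250 tested genes passed edgeR's test (8%, beside 8.39% of all genes), 12 higher and 8 lower in dd. AC165951.1, which was chosen on this contrast and passed the test, lies in this window and was the 1 near on/off gene there. On the opposite strand it overlaps Glp1r, the receptor of the gut hormone GLP-1, with 37 and 39 counts in dd and 19 and 21 in ff (log2 difference 1.19, edgeR adjusted p = 0.0802). It also overlaps Umodl1, with 0 and 0 counts in dd and 1 and 0 in ff. AC165951.1 was at 0 in both ff libraries, while Glp1r was counted in all 4. Without knowledge of strand, reads from overlapping exons cannot be told apart.

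Genes beside the members were set against the calls among all genes. Of 229 genes within 250 kb of a member, 111 were tested and 4 passed edgeR's test (3.60%, beside 8.39% of all genes), 4 higher in dd and 0 lower (2 and 1 with scaling by library size alone). An unadjusted p under 0.05 was found for 19 higher and 6 lower, DESeq2 called 8 and 2, and the median log2 difference was 0.13. Gm1821 and Gm13736 had no tested gene in that range. The nearest tested genes past it were Bmp4, a growth factor 298520 bases from Gm1821 (464 and 540 counts in dd, 422 and 362 in ff, adjusted p = 0.0621), and Olfr1034, an olfactory receptor 1475403 bases from Gm13736.

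**Figure D3:**
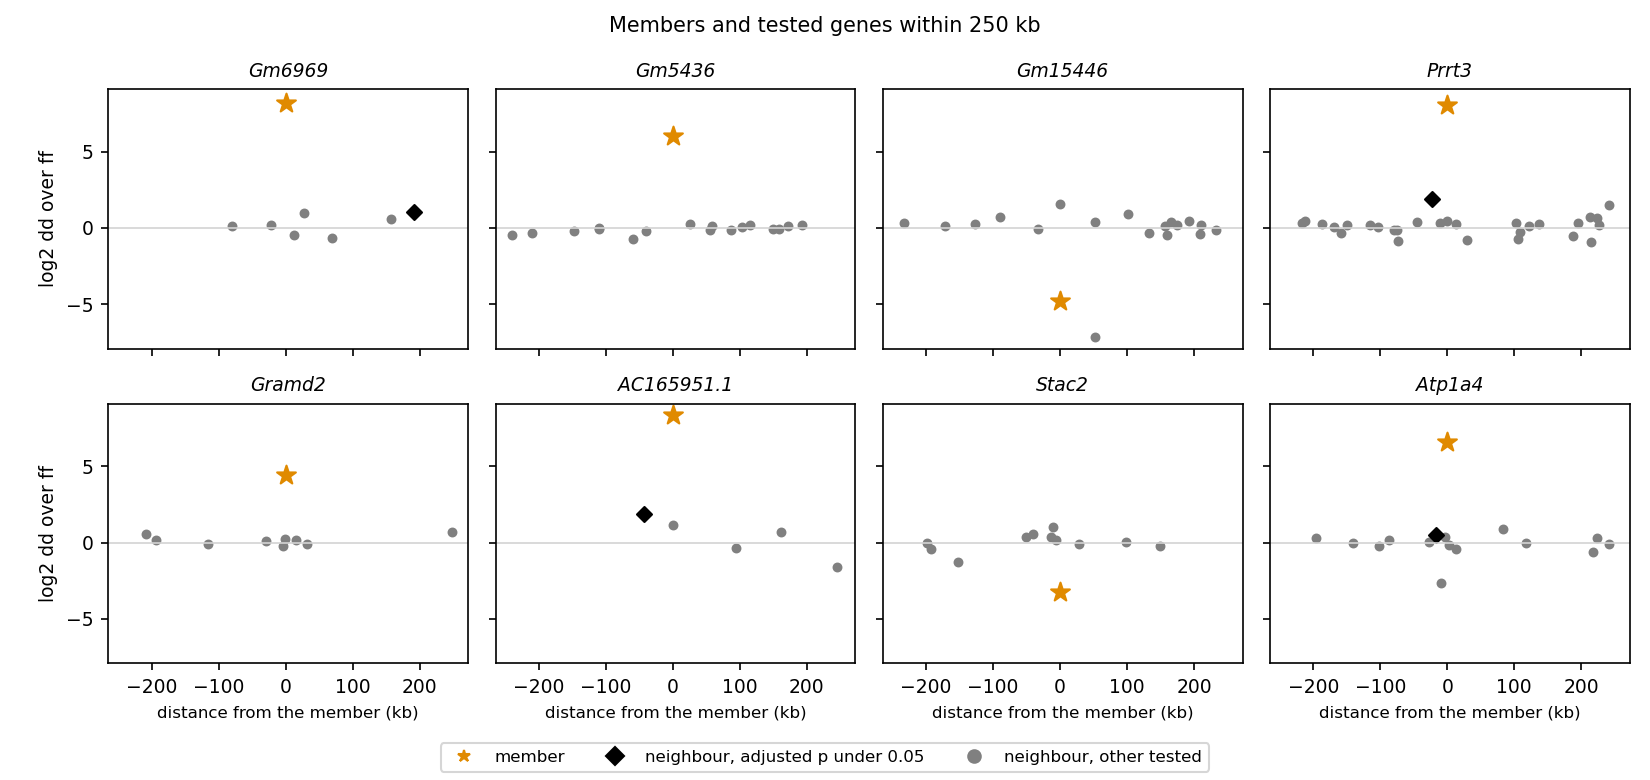
Log2 difference of dd over ff for 8 of the loci (stars) and the tested genes within 250 kb, by distance from the locus in kb. Stars show log2 of the ratio of mean CPM, with ff at AC165951.1 taken at 3 counts over the group. Neighbours are from the edgeR fit, with black diamonds for those past an adjusted p of 0.05. Most of the 111 neighbours lie near 0 (median 0.13), and Gm1821 and Gm13736 are left out because no gene in range was tested.

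At Prrt3, the gene Creld1 lies 296 bases away and had 1036 and 1296 counts in dd and 1155 and 845 in ff (log2 difference 0.49, edgeR adjusted p = 0.105). Il17re, in the same 250 kb, is a receptor subunit for interleukin 17C in epithelium and was the neighbour with the largest called difference. It had 1778 and 2241 counts in dd and 514 and 741 in ff (74.5 ± 0.900 CPM in dd, 19.6 ± 5.90 in ff), a log2 difference of 1.93 (SE 0.22, edgeR adjusted p = 0.0235). The call was lost without dd replicate 2 (0.0556). Emc3, on the other side of Prrt3 at 12943 bases, differed by 0.24 (adjusted p = 0.147), so Prrt3 stood between 2 nearest genes that did not pass the test.

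The same held at Gramd2, where Pkm, the muscle-type pyruvate kinase, lies 769 bases away with 16734 and 21785 counts in dd and 21674 and 18286 in ff (log2 difference 0.21, edgeR adjusted p = 0.297). Near Stac2, the ribosomal protein gene Rpl19 at 6131 bases differed by 0.17 (adjusted p = 0.376). Near Atp1a4, Casq1, a calcium store protein of muscle, at 3645 bases differed by 0.34 (adjusted p = 0.31) and Igsf8 at 3227 bases by -0.13 (adjusted p = 0.438). Next to Gm6969, the transcription factor gene Klf11 at 12264 bases differed by -0.44 (adjusted p = 0.467), and next to Gm5436, Ptgr2, a prostaglandin reductase, at 26259 bases by 0.25 (adjusted p = 0.397). Beyond Gm15446, the non-coding 1010001B22Rik at 51575 bases had 0 and 0 counts in dd and 12 and 26 in ff. It was high in the same group as Gm15446 (adjusted p = 0.0637). On the other side, Gm26779 at 32263 bases differed by -0.10 (adjusted p = 0.861). Gm26808, which overlaps Gm15446 on the opposite strand, had 15 and 12 counts in dd and 2 and 9 in ff. Its log2 difference was 1.54 (adjusted p = 0.234).

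The other called neighbours were each close to the threshold. Dnah8, an axonemal dynein heavy chain gene 42973 bases from AC165951.1, had 131 and 109 counts in dd and 34 and 44 in ff (log2 difference 1.90, edgeR adjusted p = 0.042), and no call without any 1 library (0.0663 to 0.154). Oviduct markers (Ovgp1, Foxj1, Tppp3, Fam183b) summed to 298 and 334 CPM in dd and 199.6 and 172 in ff. Of the 3 tested, 2 were higher and 0 lower in edgeR's test. Among those of ciliated cells, Foxj1 had 47 and 99 counts in dd and 23 and 23 in ff. Its log2 difference was 1.88 (edgeR adjusted p = 0.0465). Tppp3 had 4111 and 6258 counts in dd and 5724 and 4560 in ff, before scaling to library size. Fam183b, which was not tested, had 4 and 7 in dd and 7 and 19 in ff. The part of such cells in the Dnah8 counts was not tested. Pea15a, an adaptor that holds ERK in the cytoplasm, near Atp1a4, differed by 0.50 (adjusted p = 0.0453) and was lost without any 1 library (0.113 to 0.139). Mboat2, a phospholipid acyltransferase gene near Gm6969, differed by 1.02 (adjusted p = 0.0485) and was kept without dd replicate 1 (0.0352) but not without any other library (0.0926 to 0.17).

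A scan of the whole table shows how common the pattern is. It asked for at least 1 CPM in both libraries of one group and a gap of at least 8-fold, among 15573 genes with that level in at least 1 group. The pattern high in dd was met by 140 genes (0.899%) and the pattern high in ff by 27 (0.173%). These shares are a description and include the 8 and 2 members. With a gap of 4-fold the scan counted 317 genes in both directions together, and with 16-fold 85. With 1 library in a group it counted 285 (without dd replicate 1) and 355 (without ff replicate 2).

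**Figure D4:**
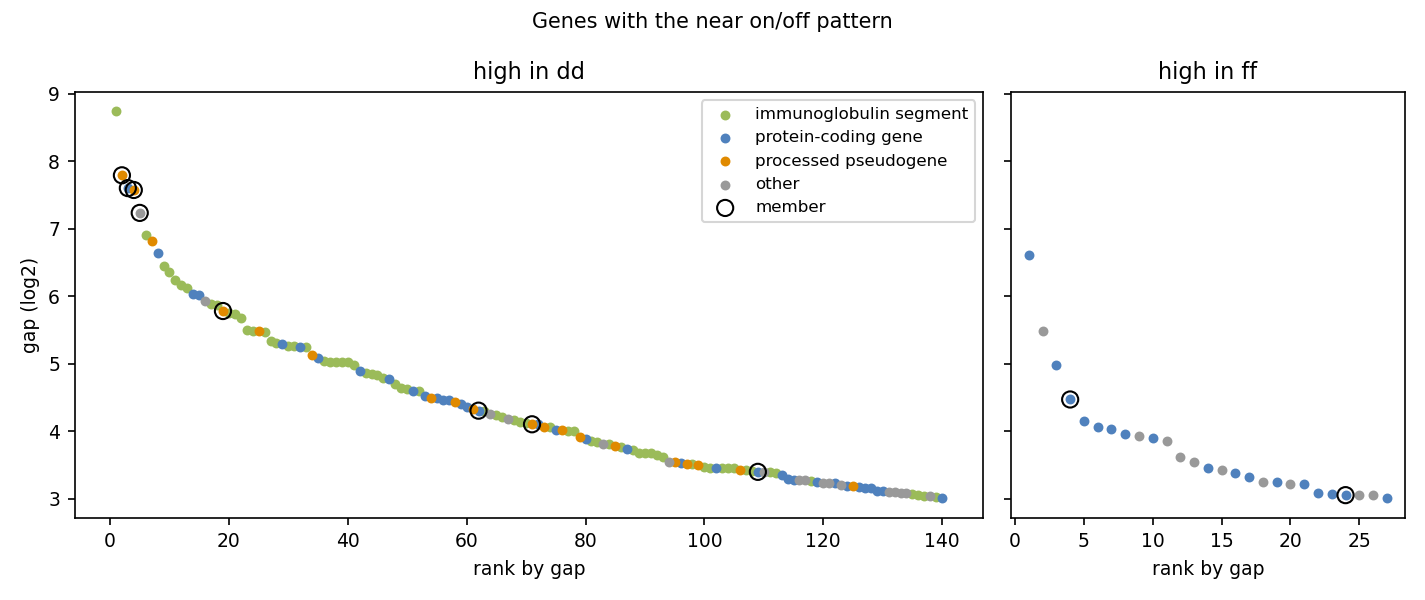
Genes with the near on/off pattern ranked by the gap (log2 of the lowest library of the high group over the highest of the low group), 140 high in dd on the left and 27 high in ff on the right, coloured by gene type, with rings on the 10 members. Members hold ranks 2 to 5 among genes high in dd, and Stac2 ranks 24 of 27 among genes high in ff.

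By type, the 140 genes high in dd were 68 immunoglobulin segments, 36 protein-coding genes, 19 processed pseudogenes and 17 others. The 72 that were not immunoglobulin segments lay on 18 chromosomes. The widest gap was that of Ighg2c, an immunoglobulin heavy chain constant gene, with 974 and 3755 counts in dd and 0 and 2 in ff. Gm6969, Prrt3, Gm13736 and AC165951.1 followed at ranks 2 to 5, Gm5436 had rank 19, Gramd2 62, Gm1821 71 and Atp1a4 109. The genes outside the immunoglobulins with the pattern most like these were Gm7993, a pseudogene whose closest coding gene is Odc1 (1644 and 1129 counts in dd, 11 and 9 in ff), and Ifi202b, an interferon-induced gene (346 and 290 in dd, 1 and 1 in ff). Plasma cell markers (Jchain, Mzb1, Sdc1, Xbp1) summed to 749 and 1284 CPM in dd and 534 and 361 in ff, and their part in the immunoglobulin count was not tested.

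The 27 genes high in ff held 17 protein-coding genes, 10 others and no processed pseudogene. Ifi213 led them with 1 and 1 counts in dd and 412 and 408 in ff. Next came the non-coding Gm49708 with 0 and 0 counts in dd and 190 and 231 in ff, then Ifi206 with 2 and 2 in dd and 134 and 143 in ff. Ifi213 and Ifi206, like Ifi202b, belong to the interferon-induced gene cluster on chromosome 1. Gm15446 had rank 4. Spink1, a protease inhibitor of the glands, Guca1b, Tacr1, Unc80, G530011O06Rik and Tac2 completed the first 10. Guca1b, which encodes a guanylate cyclase activator of photoreceptors, had 0 and 0 counts in dd and 90 and 66 in ff, and Unc80, a subunit of a neuronal sodium leak channel, 0 and 0 in dd and 66 and 81 in ff.

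Genes known to differ between C57BL/6 substrains were read in the same fit. As background, C57BL/6J mice carry a multi-exon deletion in Nnt, the mitochondrial transhydrogenase. Of Nnt, Wdfy1, Ide and Entpd4, 3 were tested, 2 rose and 1 fell in edgeR's test. Nnt had 1738 and 2035 counts in dd and 1277 and 1049 in ff (70.3 ± 4.51 CPM in dd, 36.0 ± 3.31 in ff), a log2 difference of 0.97 (adjusted p = 0.0232). Wdfy1 had 1460 and 1640 counts in dd and 1079 and 964 in ff (log2 difference 0.87, adjusted p = 0.0246). Ide, the insulin-degrading enzyme, had 1679 and 2287 counts in dd and 5513 and 4216 in ff (log2 difference -1.04, adjusted p = 0.0246). Nnt and Ide kept their calls without ff replicate 2 (0.038 and 0.0208) and lost them without any other library (0.0557 to 0.0699), and Wdfy1 lost its call without any 1 (0.0504 to 0.0788). Entpd4 had 0 and 5 counts in dd and 5 and 3 in ff and was not tested. None of the 3 tested genes had the near on/off pattern. The labels give C57 for all 4 libraries and no substrain, and the part of strain background in these values was not tested.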

How the data were processed

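RNA of whole uteri was extracted with TRIzol and made into TruSeq libraries, per the labels' protocols. STAR, edgeR and the build mm10 are named, without versions, per the submitters' processing notes. The deposited table holds raw counts for 54152 gene symbols and, per the file headers, FPKM. It also holds the authors' deposited rescaled counts (a signal, not used), a fold, which is a ratio with dd on top, and unadjusted p-values whose test was not stated.

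All symbols were found in GENCODE M21. Counts of all 4 libraries were fitted with edgeR 4.0.16 (R 4.3.3: TMM, filterByExpr, quasi-likelihood test, no block) and adjusted after Benjamini and Hochberg over 18530 genes, with calls at 0.05. CPM are counts over TMM-scaled library sizes. Errors are SD of 2 libraries. A count of 3 was the floor for libraries without counts. Copies were found with blastn 2.17.0 (at least 100 bases, 80% identity). DESeq2 1.42.0, other filters and scalings, a replicate block and left-out libraries were alternatives.

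The genes, lists and rules were chosen with earlier results of these data known. Named genes were the 10 loci, Mapk14, their nearest tested and overlapping genes, closest copies, called neighbours, called and up to 3 other members of each list, and the 10 widest gaps in each direction. Cacna1c, Cacna2d3, Gm14295 and the cilia markers with their values were named after their values were seen. Some listed genes are not reported here.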

Additional observations from a re-analysis of the deposited data

How the results depend on the processing

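The 10 member ratios kept their direction in all 60 alternative settings, as loci chosen for groups this far apart had to. Of these settings, 13 moved a ratio by more than the replicate spread. The largest move was in Atp1a4, whose log2 ratio of mean CPM was 6.58, with 4.07 without ff replicate 2 and 7.01 at its highest. Genes called numbered 2947 with no filter and 3001 with DESeq2, and between 90 and 1198 with 1 library left out. Neighbours called numbered 12 with no filter, 10 with DESeq2 and 28 within 1000 kb (a window added after seeing the data), and between 0 and 2 with 1 library left out. Closest copies called numbered 71 of 1373 tested (5.17%, beside 8.39% of all genes), most of them through repeats in AC165951.1. There were 155 with no filter, 160 with DESeq2, 2 when at least 50% of the member had to be covered (added after seeing the data), and between 3 and 56 with 1 library left out. Genes called in the 7 family and substrain lists, members and cell type markers left out, numbered 7, with 12 under no filter, 11 under DESeq2 and between 0 and 8 with 1 library left out. Near on/off genes numbered 167, with 78 at 5 CPM or more, 317 at a 4-fold and 85 at a 16-fold gap, and between 204 and 355 with 1 library left out, when 1 library stands for its group. Scaling by library size alone ended the calls of Mboat2 and Pea15a (adjusted p = 0.0556 and 0.0587), and listed calls were 4 higher and 3 lower, beside 5 and 2. With a replicate block, 1531 genes, 3 neighbours, 69 copies and 6 listed genes were called. The block took Dnah8 to 0.0557, Pea15a to 0.062 and Gm14295 to 0.0785. The labels share numbers only: the deviations of same-numbered libraries correlated at 0.0129. At these depths 3 counts correspond to between 0.0900 and 0.127 CPM, which limits the low side of every ratio.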

Other observations

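The 19 processed pseudogenes with the near on/off pattern high in dd all had a closest coding gene, at 90.1% to 100% identity (median 98.5%), and 4 of them are Gm6969, Gm13736, Gm5436 and Gm1821. Of the 19 coding genes, 2 were higher and 2 lower in edgeR's test, beside 4.52% and 3.86% of all genes. Among them were those of the pairs Gm12663 with Ublcp1 and Gm15920 with Ndufa12. Gm12663 had 82 and 102 counts in dd and 3 and 0 in ff, and matched Ublcp1, a phosphatase gene, at 99.4%. Ublcp1 had 726 and 1014 counts in dd and 1769 and 1874 in ff (log2 difference -0.82, adjusted p = 0.0264), so this pair, like Gm13736 with Srp9, had a copy high in dd and a coding gene lower in dd. Gm15920 had 161 and 353 counts in dd and 14 and 12 in ff, and Ndufa12, a subunit of respiratory complex I, was higher in dd by a log2 difference of 0.58 (adjusted p = 0.0268). Gm7993 had its closest coding gene in Odc1, the ornithine decarboxylase of polyamine synthesis, at 95.3%, and Odc1 had 3203 and 5323 counts in dd and 5106 and 3749 in ff. Gm6472 had 3688 and 2863 counts in dd and 278 and 220 in ff, and its coding match Rps7, a ribosomal protein gene, had 19709 and 30258 in dd and 33264 and 30129 in ff (log2 difference -0.10, adjusted p = 0.666). The remaining called match was Elobl, with 25 and 43 counts in dd and 1 and 0 in ff, beside its pseudogene 2210409E12Rik with 101 and 110 in dd and 0 and 5 in ff. Elobl was itself in the near on/off count high in dd (rank 102), and its call repeats that pattern. These pairs were named after their values were seen.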
